A study of Mus musculus with 2 samples.

Results

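The nuclear-encoded subunits of the mitochondrial respiratory chain were examined as a group in single mouse muscle stem cells (MuSCs), the stem cells of skeletal muscle that are also called satellite cells. Members were the genes whose mouse symbol, looked up from the Ensembl identifier, is that of a complex I subunit (Ndufa, Ndufb, Ndufc, Ndufs or Ndufv followed by a number), a complex II subunit (Sdha to Sdhd), a complex III subunit (Uqcr), a complex IV subunit (Cox4 to Cox8) or an ATP synthase subunit (Atp5), with symbols ending in -ps left out. The rule gave 89 gene identifiers with 88 symbols. Of these, 85 were listed among the 20830 genes of the short-read table of the 10% library and 87 among the 26997 genes of the 90% library. The Gencode annotation gives 85 of the 89 as protein coding and 4 as processed pseudogenes (Cox6c2, Ndufa11b, Ndufb4c and Ndufs6b).

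The respiratory chain passes electrons from NADH (through complex I) and succinate (through complex II) to complex III and then to complex IV, which reduces oxygen. Complexes I, III and IV pump protons across the inner mitochondrial membrane, and ATP synthase (complex V) uses the returning protons to make ATP. All subunits of complex II and most subunits of the other complexes are encoded in the nucleus and imported, while a small core of complexes I, III, IV and V is encoded by mitochondrial DNA. Quiescent MuSCs are small cells with few mitochondria and a low metabolic rate, and their activation is known to come with cell growth and mitochondrial biogenesis.

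The cells came from Pax7creERT2R26-eYFPfl/fl mice on a C57BL6 background, which were given tamoxifen at 3 months of age so that cells expressing Pax7 carried YFP, and were sorted on YFP. Quiescent cells were from uninjured hindlimb muscle and activated cells from muscle taken 72 h after an injection of barium chloride, so all cells carry the same alleles and the same label. Both kinds entered a single 10x 3′ capture, whose droplets were divided into a 10% aliquot (short and long reads) and a 90% aliquot (short reads). The deposited tables do not say which barcode came from which muscle, and the number of mice in the capture is not given in the sources used here.

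Barcodes were therefore compared by their own content. The low-UMI group held the barcodes of 3000 to 15000 short-read UMIs (unique molecular identifiers, each standing for 1 captured RNA molecule) without a UMI of the S and G2/M phase genes Rrm2, Top2a and Cdk1. The high-UMI group held the barcodes of at least 20000 UMIs. The 10% library gave 157 low-UMI barcodes with 1114508 UMIs in all (median 6729 per barcode) and 79 high-UMI barcodes with 5099209 UMIs (median 65499). The 90% library gave 1243 low-UMI barcodes with 6452314 UMIs (median 4680) and 606 high-UMI barcodes with 29875734 UMIs (median 47106). A UMI of the cycle genes was found in 70 of the 79 and in 571 of the 606 high-UMI barcodes. No doublet caller was run and no barcode was removed as a doublet, so the high-UMI group, which reaches 137978 UMIs, may hold barcodes with more than 1 cell. Cell identity was not assigned, and the groups are called by their UMI content throughout.

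The libraries were not separate sets of barcodes. Of the 1991 barcodes listed in the 10% table, 634 were also in the 90% table, among them all 157 low-UMI and all 79 high-UMI barcodes. In the 90% library 144 of those 157 and 76 of those 79 fell in the same group, and 153 and 79 of them had a gene profile closest to that of the same barcode in the other library. The 90% values are therefore given for the barcodes that the 10% table does not list, called the 90%-only barcodes (1000 low-UMI and 399 high-UMI), wherever the libraries are set side by side. With 1 capture there are no replicates, so no test was made. Levels are counts per 1000000 UMIs (CPM) of the summed group with exact Poisson 95% intervals. Shares have exact Clopper-Pearson intervals, and all intervals cover counting error only.

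The promoters of members at either end of the range described next are shown first, because these genes sit furthest apart in their ratio of high-UMI to low-UMI levels. Each line holds the 150 bases before the transcription start in RefSeq (GRCm38.p6), read 5′ to 3′ on the strand of the gene, which is the minus strand for all 5. Capitals mark the word GCGCANGCG, the core that nuclear respiratory factor 1 (NRF1) binds, on either strand. Sdhd (chr9:50603850-50603999), Ndufa4 (chr6:11907451-11907600) and Atp5k (chr5:108434400-108434549) were the members with the highest ratios in complexes II, IV and V, and Ndufa6 (chr15:82354292-82354441) and Cox7a2l (chr17:83514334-83514483) were the members with the lowest ratios of all.
Sdhd: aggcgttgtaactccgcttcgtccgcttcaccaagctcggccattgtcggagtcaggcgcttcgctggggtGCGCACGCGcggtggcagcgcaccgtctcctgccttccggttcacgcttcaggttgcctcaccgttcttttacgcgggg
Ndufa4: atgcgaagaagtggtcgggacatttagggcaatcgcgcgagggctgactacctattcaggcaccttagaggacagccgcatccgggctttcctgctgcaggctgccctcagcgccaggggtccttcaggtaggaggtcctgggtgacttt
Atp5k: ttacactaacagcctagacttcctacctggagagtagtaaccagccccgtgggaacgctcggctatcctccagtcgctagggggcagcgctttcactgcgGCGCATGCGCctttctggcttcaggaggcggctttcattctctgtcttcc
Ndufa6: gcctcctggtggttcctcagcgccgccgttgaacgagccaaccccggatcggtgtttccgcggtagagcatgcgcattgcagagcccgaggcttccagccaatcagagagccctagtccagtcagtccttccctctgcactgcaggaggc
Cox7a2l: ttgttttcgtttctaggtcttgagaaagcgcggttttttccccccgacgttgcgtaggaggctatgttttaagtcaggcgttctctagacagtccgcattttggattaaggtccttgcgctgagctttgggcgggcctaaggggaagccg
The word stood 79 bases before the start in Sdhd. In Atp5k overlapping matches on both strands began 50 and 49 bases before the start. The Ndufa4, Ndufa6 and Cox7a2l stretches held no match.

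Across the members, 65 had a RefSeq promoter window of 250 bases before to 50 after the start. The NRF1 word was in 19 of them (29.2%), against 6.25% of all 32851 windows. The YY1 word AAGATGGCG was in 7 (10.8%, against 1.40%), the ETS word CCGGAAG in 16 (24.6%, against 8.86%), the ERR word CAAGGTCA in 4 (6.15%, against 1.56%), and the SP1 word GGGCGG in 26 (40.0%, against 35.7%), all counted on both strands. These are matches of letters and not binding sites. The units differ: a member was counted once if any of its windows held the word, and 5 members had more than 1 window. The background counts single windows of the whole set, whether or not the gene was tested here.

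Nuclear-encoded subunits of all 5 complexes took a larger part of the RNA in high-UMI barcodes than in low-UMI barcodes. Summed over all members, they made up 1.18% of UMIs (95% interval 1.16 to 1.20%) in low-UMI and 2.99% (2.98 to 3.01%) in high-UMI barcodes of the 10% library. The 90%-only barcodes gave 1.18% (1.17 to 1.19%) and 2.92% (2.91 to 2.92%). In UMIs per barcode, the mean went from 83.5 to 1930 in the 10% library, a ratio of 23.1, while all UMIs together went up by a ratio of 9.09.

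To count members, a gene was tested if the mean of both group CPMs was at least 20 in each library, and was called if it differed at least 1.5-fold in the same direction in both. Of 78 members tested, 72 were higher in high-UMI barcodes, where 36.3% of all 3934 genes tested were, and 0 were lower, where 23% of all genes were. With the 90%-only barcodes in place of the 90% library, 72 of 77 were higher against 36.1% of all genes, and 0 were lower against 22.5%. Without the pseudogenes, 69 of 75 coding members were higher. A gene that was low in one group could enter through the other, and 5 members (Ndufa9, Ndufs1, Ndufs6b, Sdhc and Sdhd) were under 20 CPM in low-UMI barcodes of at least 1 library. Among members with at least 20 CPM in all 4 groups, 67 of 73 were higher, against 31.9% of 2769 genes. Of the members called higher, 56 had a promoter window and 18 of these held the NRF1 word, and of the members tested and not called, 5 had a window and 1 held it. With 5 such members no difference can be read from these counts. The word was not counted among all genes called or not called, and a link between the word and the level was not tested.

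**Figure D1:**
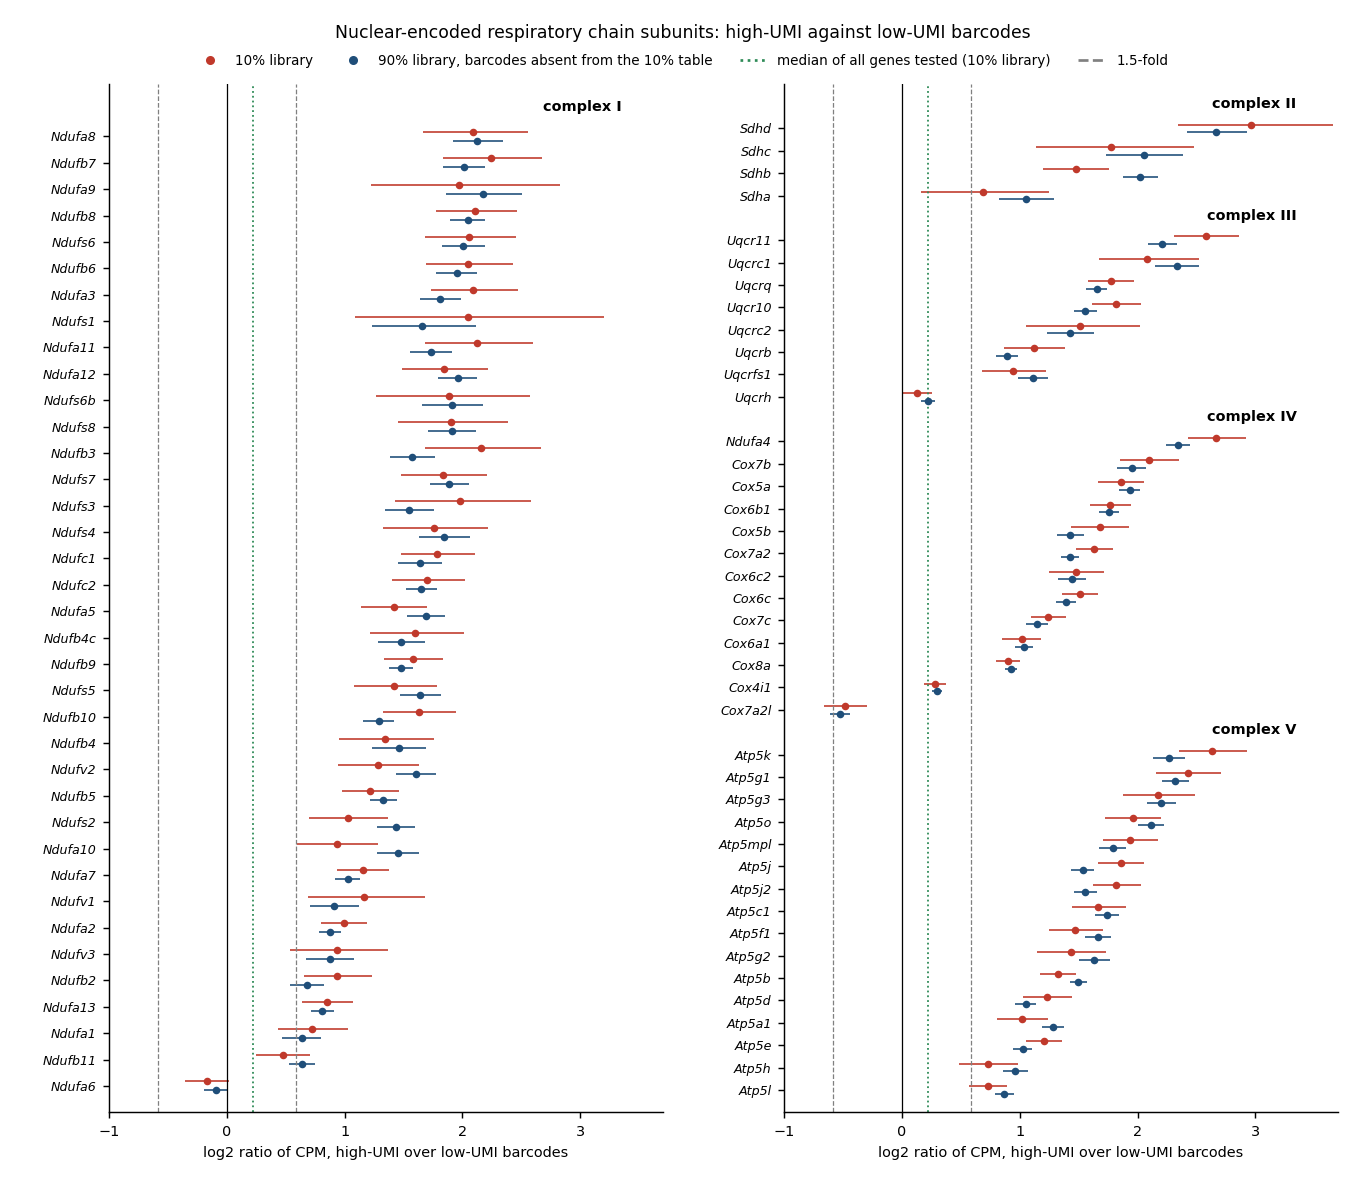
Log2 ratio of CPM in high-UMI over low-UMI barcodes (horizontal axis) for the 78 members tested, grouped by complex, in the 10% library (red) and in 90%-only barcodes (blue), with 95% intervals for counting error. The dashed lines mark 1.5-fold and the dotted line the median of all genes tested in the 10% library, 0.22. Most members lie to the right of the 1.5-fold line, and Ndufa6, Uqcrh, Cox4i1 and Cox7a2l lie near or under the dotted line.

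The median log2 ratio of the members tested was 1.61 in the 10% library and 1.56 in 90%-only barcodes, a typical difference of about 3-fold (3.06-fold in the 10% library), whereas the median of all genes tested was 0.22 in both. Member by member the ratios of the 10% library and of the 90%-only barcodes were alike, with a median absolute difference of 0.15 and a Pearson r of 0.93 over 78 genes. Both come from the same capture, and genes are not independent replicates. The interval lay above 0 in both sets for 76 members and under 0 in both for 1, Cox7a2l. These intervals cover counting error only, and the same count over all genes tested is not given here.

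Pax7, which defines MuSCs, was present in both groups at 27.8 and 12.2 CPM in low- and high-UMI barcodes of the 10% library. In markers of MuSC state, 6 of the 9 genes listed for quiescence were high enough to be tested and all 6 were called lower in high-UMI barcodes, against 23% of all genes (Spry1, Chrdl2, Heyl, Notch3, Vcam1 and Sdc4). Of 7 genes listed for activation 5 were tested. Ccnd1, Ccna2 and Birc5 were called higher, where 36.3% of all genes were, and Myod1 and Myf5 lower, where 23% were. The low-UMI group was chosen to lack UMIs of Rrm2, Top2a and Cdk1. Calls of cell cycle genes such as Ccna2 and Birc5 are therefore not independent of the grouping. The lists for differentiating myoblasts, myofibres, endothelial, fibro-adipogenic, Schwann, tendon and red blood cells had no gene above the minimum, and Acta2 of the mural list was 79.9 and 77.5 CPM in the 10% library. Of 6 immune markers, Cd74 and Tyrobp were tested and both were called lower. C1qa and Lyz2, not tested, differed in opposite directions in the libraries. C1qa had 0 UMIs in low-UMI and 49 in high-UMI barcodes of the 10% library but 62 and 1 in 90%-only barcodes. Lyz2 was 8.97 and 27.3 CPM in the 10% library but 114 and 0.920 CPM in 90%-only barcodes, and Ptprc had 0 and 1 UMIs in the 10% library. The summed immune markers were 0.0317% and 0.00700% of UMIs in low- and high-UMI barcodes of the 10% library, and 0.0199% and 0.000428% in 90%-only barcodes. As an alternative, barcodes holding a UMI of Ptprc, Cd74, C1qa or Tyrobp were left out, while Lyz2 and Cd68 were not used. The members then held 1.16% and 2.99% of UMIs in low- and high-UMI barcodes of the 10% library. Of 78 members 73 were called higher, against 36.2% of all genes.

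By complex, where 36.3% of all genes tested were called higher, 34 of 37 tested members of complex I were (median log2 ratio 1.63 in the 10% library and 1.60 in 90%-only barcodes), 4 of 4 of complex II (1.62 and 2.04), 7 of 8 of complex III (1.64 and 1.49), 11 of 13 of complex IV (1.51 and 1.43) and 16 of 16 of complex V (1.57 and 1.59). The summed share of UMIs in the 10% library went from 0.296% to 0.756% for complex I, from 0.0171% to 0.0547% for complex II, from 0.139% to 0.337% for complex III, from 0.439% to 1.01% for complex IV and from 0.285% to 0.834% for complex V. The ratio of these shares was lowest in complex IV (2.30) and highest in complex II (3.19), and was 2.14 and 4.03 in 90%-only barcodes.

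Complex I takes electrons from NADH, and its Ndufs and Ndufv subunits hold the iron-sulfur clusters and the flavin while most Ndufa and Ndufb subunits are accessory. Ndufb7, an accessory subunit of the membrane arm, was 44.9 CPM (33.3 to 59.1) in low-UMI and 212 CPM (200 to 225) in high-UMI barcodes of the 10% library, a log2 ratio of 2.24, and 54.6 and 220 CPM in 90%-only barcodes (2.01). Ndufa8 went from 40.4 CPM (29.5 to 54.0) to 172 CPM (161 to 184). Ndufb8, whose protein is often used to follow assembled complex I, went from 67.3 to 290 CPM. The other members of complex I with the largest ratios were Ndufs6 (54.7 and 228 CPM) and Ndufa9 (13.5 and 52.8 CPM, from 15 UMIs in low-UMI barcodes). In all 5, which were picked for their large ratios, the intervals of the groups did not overlap in either set. How many of all genes tested had intervals apart in this way was not counted, and the intervals hold counting error only.

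Ndufa6 stood apart within complex I. This accessory subunit of the LYR family, which binds the mitochondrial acyl carrier protein, was 265 CPM (235 to 297) in low-UMI and 236 CPM (223 to 249) in high-UMI barcodes of the 10% library and 215 and 201 CPM in 90%-only barcodes, with log2 ratios of -0.17 (-0.35 to 0.02) and -0.10 (-0.20 to 0.00). Ndufb11 had log2 ratios of 0.47 and 0.64. Ndufa1 lay just outside the call, with 0.72 and 0.63 but under 1.5-fold in the whole 90% library (0.57). The ligand of Ndufa6, Ndufab1, is no member by symbol and went from 38.6 to 184 CPM.

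Complex II is succinate dehydrogenase, the enzyme that links the citric acid cycle to the chain. Sdhd, 1 of its membrane anchors, had the largest ratio of all members: 18.8 CPM (11.7 to 28.8; 21 UMIs) in low-UMI and 147 CPM (137 to 158; 749 UMIs) in high-UMI barcodes of the 10% library, a log2 ratio of 2.96 (2.34 to 3.66). The 90%-only barcodes gave 26.4 and 168 CPM, a log2 ratio of 2.67 (2.42 to 2.93). The other anchor Sdhc went from 18.8 to 64.3 CPM and the iron-sulfur subunit Sdhb from 103 to 287 CPM. The catalytic flavoprotein Sdha differed least, at 30.5 CPM (21.1 to 42.6) and 49.0 CPM (43.1 to 55.5), a log2 ratio of 0.68 (0.16 to 1.25) in the 10% library and 1.06 (0.83 to 1.29) in 90%-only barcodes. The interval of Sdha lay wholly under that of Sdhd in both.

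In complex III, which passes electrons from ubiquinol to cytochrome c, the small subunit Uqcr11 went from 102 CPM (84.4 to 123) to 613 CPM (592 to 635) in the 10% library, a log2 ratio of 2.58, and from 113 to 522 CPM in 90%-only barcodes (2.21). The core protein Uqcrc1 had log2 ratios of 2.08 and 2.33 and its partner Uqcrc2 1.51 and 1.43. The small subunits Uqcrq and Uqcr10 had 1.77 and 1.65, and 1.81 and 1.56. Uqcrh, the acidic hinge protein next to cytochrome c1, was 589 CPM (544 to 635) and 643 CPM (621 to 666), a log2 ratio of 0.13 (0.01 to 0.25), and 0.22 (0.16 to 0.28) in 90%-only barcodes. Cyc1, the cytochrome c1 gene, which the symbol rule does not take in, went from 71.8 to 268 CPM.

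Complex IV, cytochrome c oxidase, has subunits with tissue-type copies. Ndufa4, named as a complex I subunit but found with complex IV, had the largest ratio, from 130 CPM (110 to 153) to 828 CPM (803 to 854) in the 10% library and from 159 to 809 CPM in 90%-only barcodes (log2 ratios 2.67 and 2.34). Cox7b (2.10 and 1.95), Cox5a (1.86 and 1.93), Cox6b1 (1.77 and 1.76) and Cox5b (1.68 and 1.43) followed. Cox4i1, the ubiquitous form of the largest nuclear-encoded subunit, was already 976 CPM (919 to 1036) in low-UMI barcodes and was 1184 CPM (1154 to 1214) in high-UMI barcodes, a log2 ratio of 0.28 (0.18 to 0.37), and 0.29 (0.25 to 0.34) in 90%-only barcodes.

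Cox7a2l was the member with the lowest ratio. Its protein is a relative of Cox7a with a described role in linking complexes III and IV into supercomplexes. Whether it has this role in the C57BL6 background of these mice was not tested. It was 290 CPM (259 to 323) in low-UMI and 207 CPM (195 to 220) in high-UMI barcodes of the 10% library and 315 CPM (300 to 331) and 219 CPM (212 to 226) in 90%-only barcodes, with log2 ratios of -0.48 (-0.66 to -0.30) and -0.53 (-0.61 to -0.44). The intervals of the groups did not overlap, but the difference was under 1.5-fold. Cox7a2, the ubiquitous Cox7a form, went from 310 to 961 CPM in the same barcodes (1.63 and 1.43).

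The muscle-type forms of complex IV subunits, which mark mature heart and skeletal muscle, were near the limit of detection in both groups. In the 10% library Cox6a2 had 3 UMIs in low-UMI and 1 in high-UMI barcodes (2.69 and 0.196 CPM), Cox7a1 had 5 and 29 (4.49 and 5.69 CPM) and Cox8b had 2 and 3 (1.79 and 0.588 CPM). Their ubiquitous counterparts Cox6a1 (299 and 604 CPM), Cox7a2 and Cox8a (790 and 1471 CPM) were all higher in high-UMI barcodes. Of the other alternative forms, Cox4i2, which lung expresses, had 2 and 5 UMIs, Cox6b2, which testis expresses, had 14 and 58 UMIs (12.6 and 11.4 CPM), and Ndufa4l2, a target of hypoxia signalling, had 0 in both groups, which allows up to 2.69 and 0.588 CPM when set at 3 counts of the group total. In 90%-only barcodes Cox8b was 3.78 CPM (19 UMIs) in low-UMI and 0.162 CPM (3 UMIs) in high-UMI barcodes.

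In ATP synthase all 16 members tested were higher. Atp5k, which encodes subunit e at the interface where the enzyme forms dimers, went from 92.4 CPM (75.4 to 112) to 573 CPM (553 to 595) in the 10% library and from 91.2 to 439 CPM in 90%-only barcodes (2.63 and 2.27). The genes Atp5g1, Atp5g2 and Atp5g3 encode the same mature subunit c, which forms the rotor ring. Atp5g1 went from 100 to 540 CPM, Atp5g3 from 84.3 to 381 CPM and Atp5g2 from 96.0 to 259 CPM; their log2 ratios were 2.43, 2.17 and 1.43. The stalk subunit Atp5o (1.96 and 2.11) and the small subunit Atp5mpl (1.94 and 1.79) followed. Atp5l, subunit g, which also sits at the dimer interface, had the lowest mean ratio over the libraries, at 322 CPM (290 to 357) and 533 CPM (514 to 554), a log2 ratio of 0.73 (0.57 to 0.89), and 0.87 (0.79 to 0.95) in 90%-only barcodes.

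The share of a barcode's UMIs that came from members showed little overlap between the groups. In the 10% library its median was 1.03% (quartiles 0.833 and 1.28%) in low-UMI and 3.05% (2.70 and 3.25%) in high-UMI barcodes, and 4 of 157 low-UMI barcodes lay above the high-UMI median. In 90%-only barcodes the medians were 0.990% and 2.92%, and 25 of 1000 low-UMI barcodes lay above the high-UMI median. Of the high-UMI barcodes, 1 of 79 and 0 of 399 lay under the low-UMI median.

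The share rose with depth up to 20000 to under 40000 UMIs, but for a dip in the 10% library, and changed little or fell from there. Within the low-UMI group it was 1.17% of the summed UMIs at 3000 to under 5000 UMIs per barcode, 1.08% from there to under 10000 and 1.45% from 10000 to 15000 in the 10% library, and 1.02, 1.23 and 2.02% in 90%-only barcodes. Within the high-UMI group it was 2.94% at 20000 to under 40000, 3.02% from there to under 80000 and 2.97% from 80000 on, and 3.00, 2.90 and 2.74% in 90%-only barcodes. Between the groups, over 15000 and under 20000 UMIs, it was 2.23% (12 barcodes) and 2.76% (32 barcodes). Cycle genes moved with it at low depth: the 21 and 116 barcodes of 3000 to 15000 UMIs that held a cycle gene UMI had 1.94 and 2.03%, though their medians per barcode were 1.33 and 1.24%. At 20000 UMIs or more without a cycle gene UMI, a comparison chosen after seeing the data, the share was 2.88% (9 barcodes) and 3.16% (26 barcodes), against 2.99% and 2.92% in the whole high-UMI groups.

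**Figure D2:**
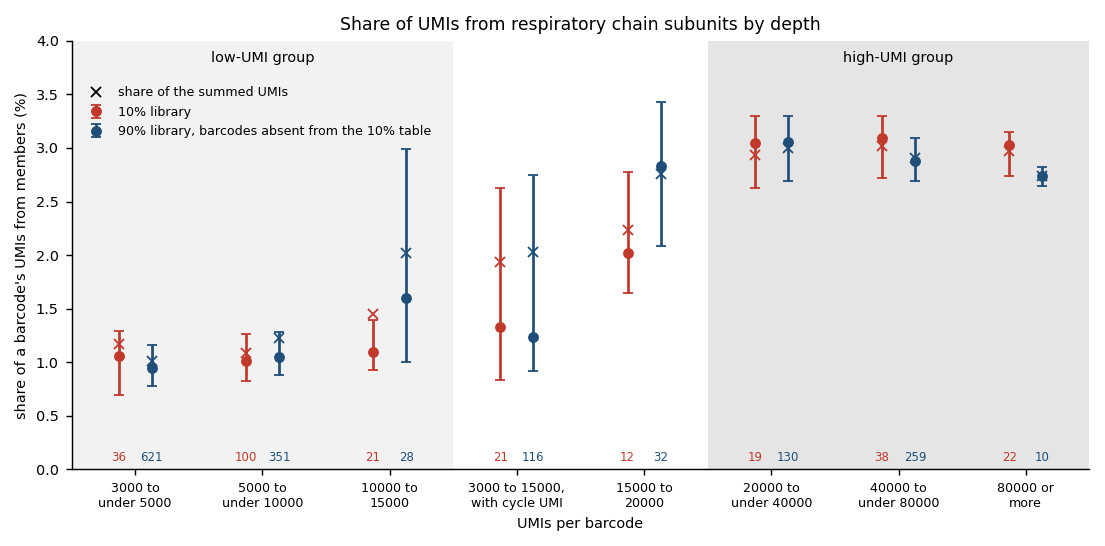
Share of a barcode's UMIs from the members (vertical axis, %) by UMIs per barcode (horizontal axis) in the 10% library (red) and in 90%-only barcodes (blue). Circles are medians over barcodes, lines span the quartiles, crosses are shares of the summed UMIs, and the numbers along the axis count barcodes. Medians are 0.944 to 1.06% below 10000 UMIs and 2.73 to 3.09% from 20000 UMIs on, with wide quartiles between.

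Genes that work with the members were read from fixed lists. The 13 protein genes of mitochondrial DNA, which encode the other subunits of the same complexes, did not differ in the same way: of 10 tested, 0 were called higher and 0 lower, against 36.3% and 23% of all genes. Their median log2 ratio was -0.09 in the 10% library and -0.17 in 90%-only barcodes, and their values ran from -0.52 (mt-Co3) to 0.30 (mt-Nd4l) in the 10% library. Their summed share was 0.766% and 0.719% in low- and high-UMI barcodes of the 10% library, and 1.24% and 1.07% in 90%-only barcodes. Per barcode they went up by a ratio of 8.53, near the 9.09 of all UMIs, against 23.1 for the members. The share of mitochondrial transcripts can also move with damage to a cell, which was not tested.

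In the lists of partners, assembly factors and citric acid cycle genes, the share of tested genes called higher was above the 36.3% of all genes tested, though most assembly factors were under the minimum. Of 12 listed subunits and partners outside the symbol rule 10 were tested and 9 were higher, with a median log2 ratio of 1.79, led by the outer membrane channel Vdac1 (21.5 to 178 CPM), Ndufab1, the ATP synthase inhibitor Atpif1 and Cyc1, while Etfa had 0.29 and -0.07. Of 43 assembly factors 11 were tested and 8 were higher (median 1.46), among them Tmem70 (2.40 and 1.87), which is needed to assemble ATP synthase, the complex I factor Ndufaf8 (2.33 and 1.60), Coa3 (2.18 and 2.03) and Uqcc2 (1.67 and 1.90). Ndufaf4, Surf1 and Cox19 were not called. Of 13 citric acid cycle genes 11 were tested and 9 were higher (median 1.59), with Idh3a, of the NAD-dependent isocitrate dehydrogenase, at 2.62 and 2.54, Suclg1 at 2.01 and 2.33 and Mdh2 at 2.13 and 1.84.

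Regulators of mitochondrial biogenesis were mostly under the minimum. Those under it went both ways. In the 10% library and 90%-only barcodes, Esrra had log2 ratios of 2.03 and 2.74, and Pprc1 had -1.99 and -1.19. Of 13 listed 5 were tested, of which 0 were called higher, against 36.3% of all genes, and 3 were called lower, against 23%: Myc, the growth-promoting transcription factor (395 to 43.9 CPM in the 10% library), Gabpb1, a subunit of the ETS factor NRF2 (32.3 to 10.0 CPM), and Tfb2m, which starts transcription of mitochondrial DNA (28.7 to 17.8 CPM). Tfam, which packages mitochondrial DNA, was 68.2 and 30.6 CPM with log2 ratios of -1.16 and -0.41, and Yy1 had 0.58 and 0.02. For scale, 91 cytosolic ribosomal protein genes were tested, of which 4 were higher and 7 lower, with a summed share of 15.0% and 14.1%.

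**Figure D3:**
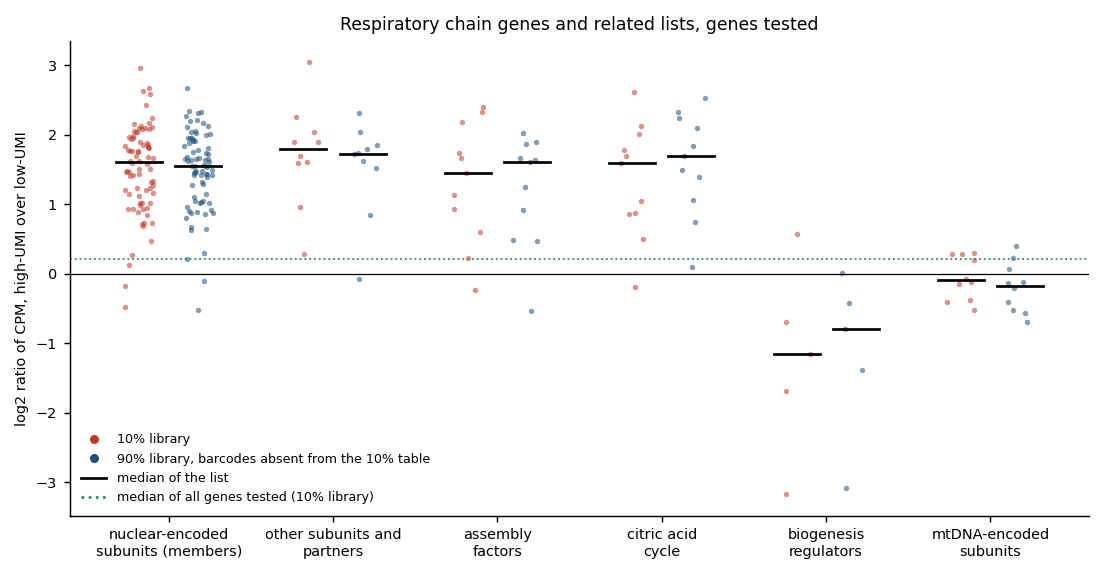
Log2 ratio of CPM, high-UMI over low-UMI barcodes (vertical axis), for each gene tested in 6 lists, in the 10% library (red) and 90%-only barcodes (blue). Black bars are list medians and the dotted line is the median of all genes tested. Nuclear lists of subunits, partners, assembly factors and the citric acid cycle have medians from 1.46 to 1.79, while subunits encoded by mitochondrial DNA centre just under 0.

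Short reads near 3′ ends cannot always be given to a gene or its near-identical copies. The last 300 bases of 16 member identifiers shared at least 20% of their 31-base words with another gene, mostly processed pseudogenes, and in 7 members (Atp5g1, Atp5g2, Atp5h, Atp5l, Cox5b, Cox7c and Ndufs5) the copies held more UMIs than the member. For Atp5g2 this was 6661 against 1504 UMIs in the 10% library. The levels of these members are therefore uncertain. The copies moved the same way: their log2 ratios were at least 0.32 in the 10% library. The copy of Ndufb3 had 0 UMIs in low-UMI barcodes there and so no ratio. Because reads of a member may be counted for its copies, the ratios of the copies are not independent of those of the members. With member and copies summed, 14 of 15 were at least 1.5-fold higher in both sets, the exception being Ndufb11 with 0.43 and 0.61. With these members left out, 58 of the other 63 were called higher, against 36.3% of all genes tested.

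Long reads of the 10% library gave an account of the same barcodes that does not rest on 3′ ends alone. They held 1382498 UMIs in low-UMI and 4628237 in high-UMI barcodes. For the 70 members tested with at least 50 long-read UMIs in each group, long- and short-read ratios had a Pearson r of 0.79 and a median absolute difference of 0.18. The median over members was lower by long reads, at 1.34. The pseudogene members had 0 long-read UMIs.

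Cox7c and Ndufa12 were the members furthest from this pattern, and were singled out after their values were seen. Cox7c had a log2 ratio of 1.24 by short reads (417 and 4516 UMIs) and -1.54 by long reads, where the table holds 74 and 85 UMIs for this gene. Ndufa12 had 1.84 by short reads and 0.73 (0.55 to 0.91) by long reads.

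**Figure D4:**
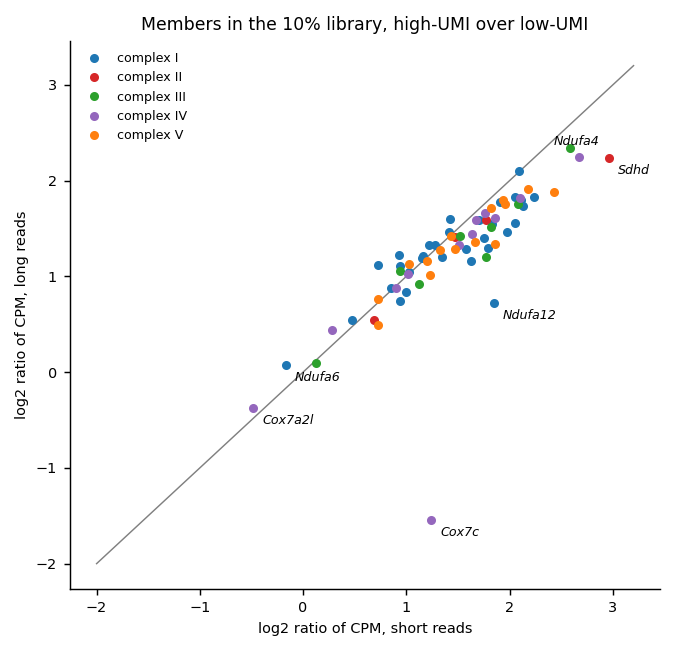
Log2 ratio of CPM, high-UMI over low-UMI barcodes of the 10% library, by short reads (horizontal axis) and long reads (vertical axis) for the 70 members tested with at least 50 long-read UMIs in each group, coloured by complex. The line marks equal ratios. Most points lie close to or just under it, and Cox7c and Ndufa12 lie far under it.

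Long reads also gave the share of each gene's UMIs on each isoform. Of 80 members in the isoform table, with 415 isoforms, 67 had at least 2 isoforms and 50 UMIs in each group. In 5 of these (7.46%) an isoform differed in share by at least 20 percentage points, where 17.5% of all 3230 such genes did. The largest difference was 10 to 20 points in 9 members and under 10 in 53, with a median of 4.38 points against 10.7 over all genes. A largest difference also grows with counting error where UMIs are few. Members and all genes were not matched for UMIs or for number of isoforms, so whether member isoforms differ less than others was not tested.

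Ndufa12, an accessory subunit of complex I, had the largest difference. An isoform without a reference name, chr10:94199037-94204947 (GRCm38, plus strand), held 54.4% of 294 UMIs (48.5 to 60.2%) in low-UMI and 11.7% of 1627 UMIs (10.2 to 13.3%) in high-UMI barcodes, a difference of -42.7 points (-48.5 to -36.8). Its entry in the deposited annotation has 4 exons, of which the third is that of the reference transcript and the last, 673 bases at chr10:94204275-94204947, lies within the intron before the last reference exon at chr10:94220681-94220948. The coding reference transcript ENSMUST00000179990.7 held 24.1% and 47.3%, and an unnamed isoform of full span 19.7% and 39.8%. With the early end left out, the log2 ratio of Ndufa12 by long reads was 1.68 (1.42 to 1.95), near the 1.84 of short reads, whereas the early end alone was -1.50, from 116 to 41.1 CPM.

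Ndufv3, an accessory subunit at the NADH-binding tip of complex I, is made in a short and a long form by skipping or including a long coding exon, 1092 bases at chr17:31527310-31528401 (plus strand). The transcript without it, ENSMUST00000064798.15, held 60.3% of 68 UMIs (47.7 to 72.0%) in low-UMI and 83.2% of 382 UMIs (79.1 to 86.9%) in high-UMI barcodes, a difference of 23.0 points (11.4 to 35.3). The transcript with it, ENSMUST00000046288.15, held 33.8% and 11.3%. The sequences around the end of exon 2, from Gencode vM21 on GRCm38, show the choice, with the first 10 bases of the next exon in capitals.
Ndufv3 with the long exon: gacacaaagtgtgctcaaagATGTGGGAGC
Ndufv3 without the long exon: gacacaaagtgtgctcaaagAGCCCGAGCC

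Atp5c1 encodes the gamma subunit, the central shaft that turns within ATP synthase. Its penultimate exon is 37 bases at chr2:10056770-10056806 (minus strand), and skipping it gives the form known from heart and skeletal muscle. The junction from exon 8, with the first 10 bases of the next exon in capitals, reads as follows.
Atp5c1 with the short exon: atctctggggctgctgctctGGATTAATGA
Atp5c1 without the short exon: atctctggggctgctgctctGTAAAGAAGA
The transcript with the exon that held most UMIs, ENSMUST00000114897.8, took 50.1% of 397 UMIs (45.1 to 55.2%) in low-UMI and 68.4% of 3396 UMIs (66.8 to 69.9%) in high-UMI barcodes, a difference of 18.2 points (13.1 to 23.4) that lay just outside the threshold. The transcript without it, ENSMUST00000026887.13, took 35.5% (30.8 to 40.4%) and 26.4% (24.9 to 27.9%). Over named transcripts alone, the exon was in 59.9% of 352 and 72.6% of 3279 UMIs, a difference of 12.7 points (7.48 to 18.1). Per barcode with at least 3 UMIs of the gene, the mean share of ENSMUST00000114897.8 was 48.5% (SD 38.1, 55 barcodes) and 69.0% (SD 20.1, 78 barcodes), so single barcodes overlapped widely. By level, Atp5c1 went from 150 CPM (128 to 174) to 476 CPM (457 to 495) in short reads of the 10% library.

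The other 3 genes with a difference of at least 20 points were Ndufb10, Ndufs4 and Cox7c. Ndufb10, an accessory subunit of the membrane arm of complex I, had its coding transcript ENSMUST00000045602.8 at 74.3% of 179 (67.2 to 80.5%) and 94.3% of 1340 UMIs (92.95 to 95.5%), a difference of 20.0 points just inside the threshold, and its retained-intron transcript ENSMUST00000129451.1 at 11.7% and 3.06%. In Ndufs4, an accessory subunit of the NADH-oxidizing arm, an unnamed isoform at the 5′ end of the gene (chr13:114387105-114388080, minus strand) held 29.2% of 89 and 7.98% of 789 UMIs, a difference of -21.2 points (-31.5 to -12.5). In Cox7c, an unnamed isoform held 90.5% of 74 and 65.9% of 85 UMIs, and since the gene had 417 and 4516 short-read UMIs in the same barcodes, these shares describe a small part of its RNA. Just outside the threshold besides Atp5c1 were Sdhc and Uqcrc1 (both 17.5 points), Ndufa9 (15.6) and Sdha (15.4).

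**Figure D5:**
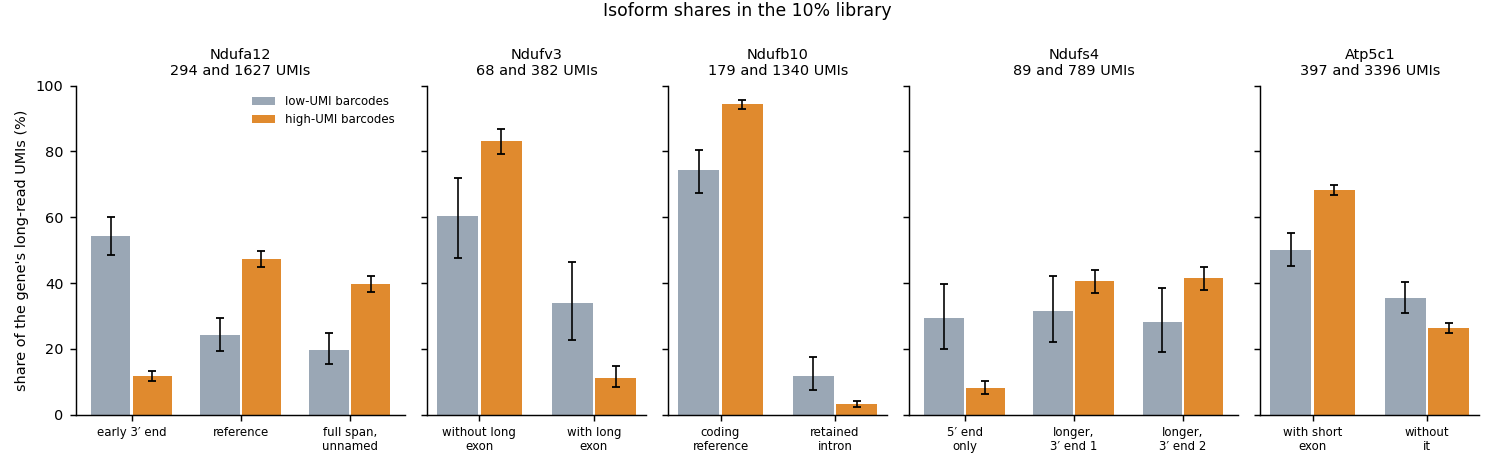
Share of a gene's long-read UMIs (vertical axis, %) on selected isoforms of Ndufa12, Ndufv3, Ndufb10, Ndufs4 and Atp5c1 in low-UMI (grey) and high-UMI (orange) barcodes of the 10% library, with exact 95% intervals. Panel titles give the gene's UMIs in each group. The early end of Ndufa12 stands at 54.4% and 11.7%, and the Ndufv3 form without its long exon at 60.3% and 83.2%.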

How the data were processed

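The authors deposited UMI counts per gene from short reads of both aliquots and UMI counts per isoform from long reads of the 10% aliquot, without normalization. Gene counts were made with scPipe and isoform counts with FLAMES, after alignment with minimap2 to mm10 with Gencode vM24. The submitters' processing notes name Cell Ranger 1.3, minimap2 2.17 and GRCm38.p6. A 3′ count depends on reads near transcript ends, so levels were compared between groups and not between genes.

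From the counts, CPM was computed per library and barcode group with Python 3.11.15, pandas 2.3.3 and scipy 1.17.1. Symbols came from the gene tables provided and Gencode vM21, promoters from RefSeq. Intervals of ratios are conditional binomial and those of share differences Newcombe's. Named members are, per complex, up to 5 with the largest absolute mean log2 ratio over the libraries and the 1 nearest 0, the paralogue sets, Atp5c1 and every member with a share shift of at least 20 points. For other lists up to 4 examples were named. Members and lists were chosen with earlier results of these data known. Functions were tested on simulated counts. Alternatives were other barcode limits, minimums, scalings, read types and isoform limits.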

Additional observations from a re-analysis of the deposited data

How the results depend on the processing

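Of 89 recomputed values 68 kept their size, 21 moved and 0 changed direction. Only log2 ratios and the Atp5c1 difference could change direction, since shares of UMIs and counts of members cannot. A count was taken to keep its size within a ratio of 1.5. Shares of a group that an alternative left unaltered were the same by construction, so the tally overstates how much was tried. A low-UMI group of 5000 to 10000 UMIs gave a median log2 ratio of 1.80 in the 10% library and member shares of 1.08% (10%) and 1.21% (90%). It also gave 3 of 54 members with a share shift, and an Atp5c1 difference of 24.4 points. Without the cycle gene criterion the low-UMI shares were 1.27% and 1.29%. A high-UMI minimum of 40000 gave 2.89% in the 90% library. Leaving out barcodes with UMIs of Ptprc, Cd74, C1qa or Tyrobp gave 1.16% in the low-UMI group of that library. The mean of per-barcode CPM gave a median of 1.73 in the 90% library. Centring on the median of all genes, a shift of 0.22, gave medians of 1.40 and 1.38 and made 1 member, Cox7a2l, at least 1.5-fold lower. Without a minimum CPM 73 of 85 members were higher (27.5% of all genes) and 3 lower (25.7% of all genes; Cox4i2, Cox6a2 and Cox8b, on few UMIs). Long-read counts gave 1.34. Members with a share shift numbered 2 of 53 with at least 100 UMIs, 14 of 67 at 10 points and 1 of 67 at 30 points. With reference-named isoforms alone 1 of 26 had such a shift. The share of all genes with a shift under these other limits is not given here, so the counts have no background beside them. High-UMI barcodes without cycle UMIs, chosen after seeing the data, held 2.88% and 3.15%. The cause of each move was not tested. Single-capture data give no spread between animals, and members with few low-UMI counts (Sdhd, 21 UMIs) have wide intervals. No paired analysis was possible because no result comes from a test between replicated groups.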

Other observations

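Some members lay outside the comparisons. Of the 89 identifiers 9 were listed in a table but not tested, namely Atp5s, Cox4i2, Cox6a2, Cox6b2, Cox7a1, Cox7b2, Cox8b, Ndufa4l2 and Ndufa11b, and 2 were in neither table (Cox8c and a second identifier of Atp5o). Atp5s had 2 UMIs in low-UMI and 20 in high-UMI barcodes of the 10% library. Cox7b2, a testis form of a complex IV subunit, had 0 in both groups there and 0 and 3 in 90%-only barcodes.

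Barcodes under the depth limits also held members. Those of 1000 to under 3000 UMIs gave the members 1.60% of summed UMIs in the 10% library (61 barcodes) and 1.15% in 90%-only barcodes (327 barcodes), with medians per barcode of 1.10% and 0.909%. In the same barcodes the genes of mitochondrial DNA took 4.10% and 7.17% of UMIs, against 0.883% and 1.37% in the low-UMI groups.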
